A study of Mus musculus with 4 samples.

Results

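The Myc, Max and Mxd network is a small family of transcription factors, and its transcripts were followed in MIN6 cells that overexpress TLX and in control MIN6 cells. The network was taken as 10 genes whose symbols were listed by name, Myc, Mycn, Mycl1, Max, Mxd1, Mxd3, Mxd4, Mxi1, Mnt and Mlx. All 10 had a row among the 23473 gene rows of the deposited count table, and 8 of them were among the 11024 genes with enough reads to be tested. MIN6 is a mouse insulinoma line used as a model of the insulin-secreting beta cell, and TLX is the orphan nuclear receptor encoded by Nr2e1. RNA-seq of total RNA gave 2 libraries of cells stably overexpressing TLX and 2 libraries of wild-type control cells. All cells were grown in the same high-glucose medium with fetal calf serum. None of the sources used here gives the promoter that drives TLX, a vector in the control cells, or whether the stable cells are 1 clone. Nothing in the labels says that the 2 libraries of a group came from separate cultures, so every p-value measures the spread between these libraries, which may be technical.

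Proteins of this family bind DNA in pairs through a basic region, a helix-loop-helix and a leucine zipper. Max is the shared partner. Pairs of Max with Myc, Mycn or Mycl1 activate genes of growth, ribosome production and the cell cycle, while pairs of Max with Mxd1, Mxd3, Mxd4, Mxi1 or Mnt recruit the Sin3 and histone deacetylase corepressor to the same sites. Mlx is a second hub, which pairs with the glucose-sensing factors MondoA and ChREBP and with some Mxd proteins. Myc messenger RNA is short-lived and follows growth factor signals closely, and in beta cells a high Myc activity is known to drive proliferation with loss of differentiated function.

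The pairs bind the E-box, the palindrome CACGTG, which reads the same on both strands. Of the 10 genes, 9 have promoter windows in the RefSeq table used here (GRCm38.p6, 250 bases before to 50 after a start site; Mycl1 is listed there as Mycl), and Myc has none. The E-box letters were found in the windows of 4 of them, Max, Mxd4, Mnt and Mlx, against 8.09% of the 27025 genes in the table. The 60 bases around each are shown because they carry the site the network itself binds, with the E-box in capitals, for Max (chr12:76962219-76962278, minus strand), Mxd4 (chr5:34187897-34187956, minus strand), Mnt (chr11:74830774-74830833, plus strand) and Mlx (chr11:101087223-101087282, plus strand).
Max: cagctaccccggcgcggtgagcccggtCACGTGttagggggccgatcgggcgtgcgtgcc
Mxd4: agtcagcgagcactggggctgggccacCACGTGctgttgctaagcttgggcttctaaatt
Mnt: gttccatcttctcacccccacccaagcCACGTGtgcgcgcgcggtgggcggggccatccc
Mlx: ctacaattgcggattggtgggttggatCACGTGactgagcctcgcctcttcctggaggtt
Counted from the annotated start site, the E-box began at position -3 in Max, -40 in Mlx, -123 in Mnt and -219 in Mxd4. The half-site AAGTCA, to which TLX is known to bind, was searched on both strands. It was found in 1 of the 3 windows of Mxi1 and in none of the other members' windows, against 17% of the genes in the table. Here it is in capitals (chr19:53329184-53329243, plus strand).
Mxi1: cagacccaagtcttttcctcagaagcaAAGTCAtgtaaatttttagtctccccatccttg
The letters are a match in a short window, and whether any of these sites was bound was not measured.

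Gene rows held 8490145 and 8136185 counts in the TLX libraries and 8435976 and 9788646 in the control libraries. Levels are given as CPM, counts brought to a common library size over the gene rows, with the library sizes scaled by TMM (trimmed mean of M-values). Nr2e1 had 338 and 281 counts in TLX libraries and 8 and 10 in control libraries, a 37.4-fold higher level in the libraries labelled TLX (log2 fold change 5.22, SE 0.20; edgeR adjusted p = 3.18e-14). Beta cell markers were low in both groups, with 11 of 15 at 0 counts in all 4 libraries and a summed level of 20.8 to 21.7 CPM in TLX and 18.3 to 20.6 CPM in control. Ins1, an insulin gene, was at 10.1 ± 1.8 CPM in TLX and 9.0 ± 0.5 CPM in control (SD, n = 2 each). In both groups these levels go against the label of an insulin-producing line, and some mesenchymal transcripts were far more abundant. Of 12 fibroblast and mesenchymal markers 1 was at 0 in all libraries, and only 7 had enough reads to be tested. The sum of the 12, mostly Col1a2 and Vim, was 6752 to 6860 CPM in TLX and 6060 to 6419 CPM in control. Single markers of that list went both ways, with 2 of 7 tested called higher and 2 lower. The median log2 fold change of the 7 was -0.14. Sparc was at 313 and 308 CPM in TLX and 174 and 165 CPM in control. Fn1 was at 566 and 606 CPM in TLX and 1019 and 970 CPM in control. Both were named after their values were seen. The acinar and duct list, with 6 of 8 markers at 0, summed to 12.2 to 12.6 CPM in TLX and 27.1 to 29.6 CPM in control, and the leukocyte list, with 2 of 8 at 0, to 59.9 to 62.8 CPM in TLX and 76.9 to 85.7 CPM in control. The lists of endothelial markers (1 of 6 at 0) and of alpha, delta and PP cell markers (4 of 6 at 0) summed to 2.02 to 3.24 and 52.6 to 56.0 CPM in TLX and to 2.04 to 2.42 and 43.5 to 50.9 CPM in control. The alpha, delta and PP sum was mostly Irx2, at a mean of 53.3 CPM in TLX and 46.5 CPM in control. The acinar and duct sum was mostly Sox9, at 10.4 CPM in TLX and 27.0 CPM in control. Most of the leukocyte sum was Cd68, at 44.3 CPM in TLX and 63.7 CPM in control, while Lyz2 was at 16.7 and 17.3 CPM. These genes were named after their values were seen. The part of these shifts in the results was not tested. In bulk RNA, fewer cells that express a gene and less RNA per cell cannot be told apart.

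Myc, the activator at the head of the network, was the member that changed most. It had 94.8 and 102.1 CPM in the TLX libraries, against 280.4 and 272.8 CPM in the control libraries. The groups lay far apart, and within each the libraries were close, with means of 98.4 ± 5.1 CPM in TLX and 277 ± 5 CPM in control (SD, n = 2 each). Myc fell 2.81-fold with TLX (log2 fold change -1.49, SE 0.08, 95% confidence interval -1.65 to -1.33; edgeR's quasi-likelihood test, adjusted p = 6.61e-12). Among the 11024 genes tested, 38 had a lower log2 fold change and 3 had a smaller p. By level Myc ranked 1959th in TLX libraries and 485th in control libraries.

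The other activators were at the detection limit. Mycn, best known from neural tissue, had 1 and 1 counts in TLX libraries and 0 and 1 in control libraries. Mycl1, which encodes L-Myc, had 0 and 1 counts in TLX libraries and 0 in both control libraries. A count of 0 allows up to 0.302 to 0.379 CPM in these libraries (3 counts, covering counting error only). Both genes were too low to test, so no difference was detectable at this depth, and the activator transcripts of the network were almost wholly those of Myc in both groups.

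Among the repressors, Mxd1 was the only one to pass the test. Mxd1, whose product antagonises Myc and is usually associated with differentiating cells, had 11.1 and 11.0 CPM in TLX libraries, against 17.1 and 15.1 CPM in control libraries. It fell 1.45-fold (log2 fold change -0.54, SE 0.15; edgeR adjusted p = 0.0126). The libraries of the 2 groups did not overlap, but the call was lost in DESeq2 (adjusted p = 0.157) and without control replicate 1 (0.0508). Its adjusted p was 0.00309 to 0.157 over the 12 alternatives other than the replicate block and 0.00115 with that block. Mxd1 thus moved in the same direction as Myc, by a smaller step and with less certainty.

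Mxd3 and Mxd4 lay somewhat higher in TLX libraries without passing. Mxd3, a repressor known to peak in proliferating cells in S phase, had 52.5 and 45.4 CPM in TLX libraries and 43.8 and 40.6 CPM in control libraries (log2 fold change 0.22, SE 0.10; edgeR adjusted p = 0.137). Mxd4 had 26.6 and 22.2 CPM in TLX libraries and 21.7 and 19.5 CPM in control libraries (log2 fold change 0.25, SE 0.13; edgeR adjusted p = 0.18). In both genes the lower TLX library stood just above the higher control library. Exons of Mxd3 overlap those of Prelid1 on the opposite strand by 105 bases, and exons of Mxd4 overlap Gm42846 by 514 bases. Since no source says whether counting used strand, reads of such pairs cannot be told apart. Prelid1 itself, at 565 ± 30 CPM in TLX and 570 ± 22 CPM in control (SD, n = 2 each), had a log2 fold change of -0.01.

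Mxi1 and Mnt overlapped between the groups. Mxi1, a Mxd family repressor also called Mxd2, had 19.0 and 21.1 CPM in TLX libraries and 20.5 and 17.7 CPM in control libraries (edgeR adjusted p = 0.767). Its exons overlap Gm10197 on the opposite strand by 194 bases. Mnt, the most broadly expressed of the Max-dependent repressors, had 77.9 and 83.3 CPM in TLX libraries and 80.1 and 77.2 CPM in control libraries (edgeR adjusted p = 0.834). The 95% confidence intervals of the fold change were 0.87 to 1.26 for Mxi1 and 0.91 to 1.16 for Mnt, so a change as large as that of Myc lies outside both.

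Neither hub passed the test. Max had 51.9 and 58.2 CPM in TLX libraries and 48.3 and 52.7 CPM in control libraries, with overlapping groups and a 95% confidence interval of the fold change of 0.95 to 1.24 (edgeR adjusted p = 0.42). Mlx had 36.7 and 36.6 CPM in TLX libraries, against 45.6 and 41.5 CPM in control libraries. Both TLX libraries were below both control libraries, with a log2 fold change of -0.25 (SE 0.10) that did not pass (edgeR adjusted p = 0.0871). Without control replicate 2 it did (0.0290), with 0.0290 to 0.383 over the 12 alternatives other than the replicate block and 0.0266 with that block. Exons of Mlx overlap those of Psmc3ip on the opposite strand by 385 bases, and Psmc3ip was at 8.01 ± 0.62 CPM in TLX and 7.64 ± 0.55 CPM in control (SD, n = 2 each).

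In all, 2 of the 8 tested members were lower with TLX, against 9.04% of all genes tested, and 0 were higher, against 7.79% of all genes. At an unadjusted p under 0.05 in edgeR 3 were lower and 1, Mxd3, was higher, and DESeq2 called 1 lower and 0 higher. Calls in either direction made up 16.8% of all genes. Groups did not overlap in 5 members, Myc, Mxd1, Mxd3, Mxd4 and Mlx, as in 57.1% of all genes. The median log2 fold change of the 8 was 0.05, against 0.00057 over all genes tested. With 8 genes, these counts say nothing particular to the network as a set, and the statement that holds is about Myc: no other member had a log2 fold change below -0.54. The count of 2 calls was 1 without control replicate 1 and 3 without control replicate 2.

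**Figure D1:**
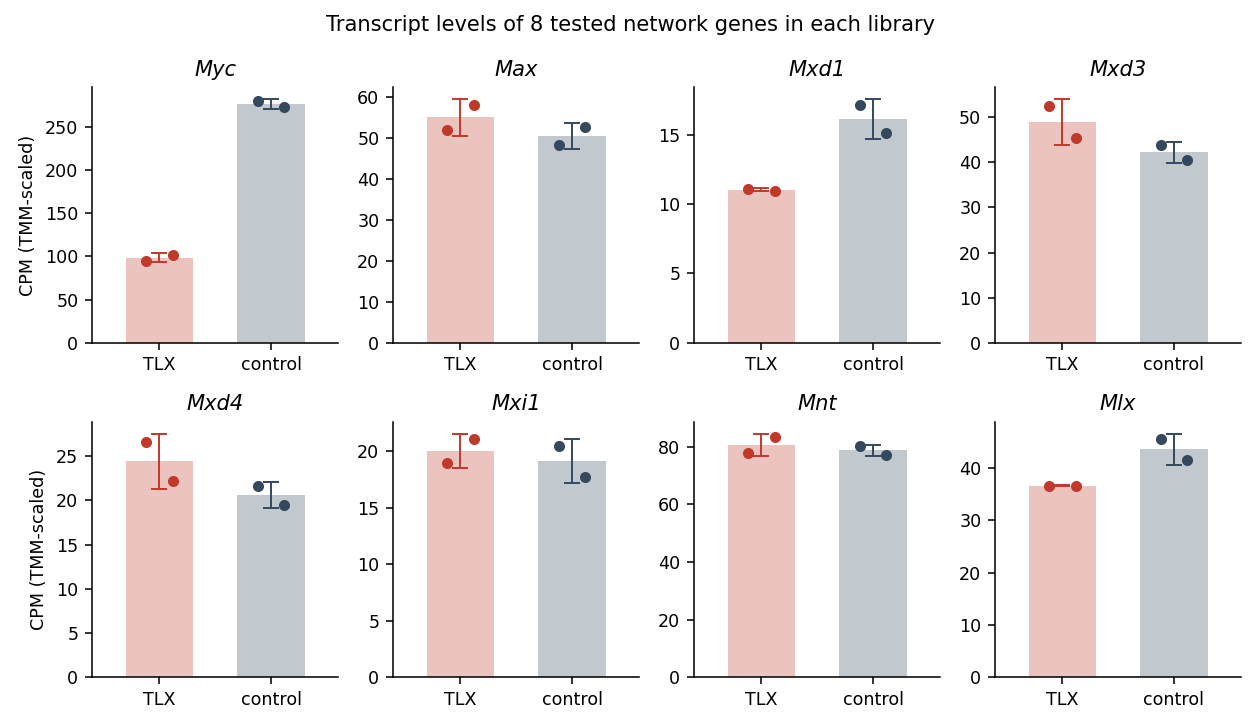
Level in each library of the 8 tested members, in CPM on TMM-scaled library sizes, with TLX left and control right; points are libraries, bars the mean and whiskers the SD of 2 libraries. Myc stands at 94.8 and 102.1 CPM in TLX against 280.4 and 272.8 CPM in control, while Max, Mxi1 and Mnt overlap between the groups.

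**Figure D2:**
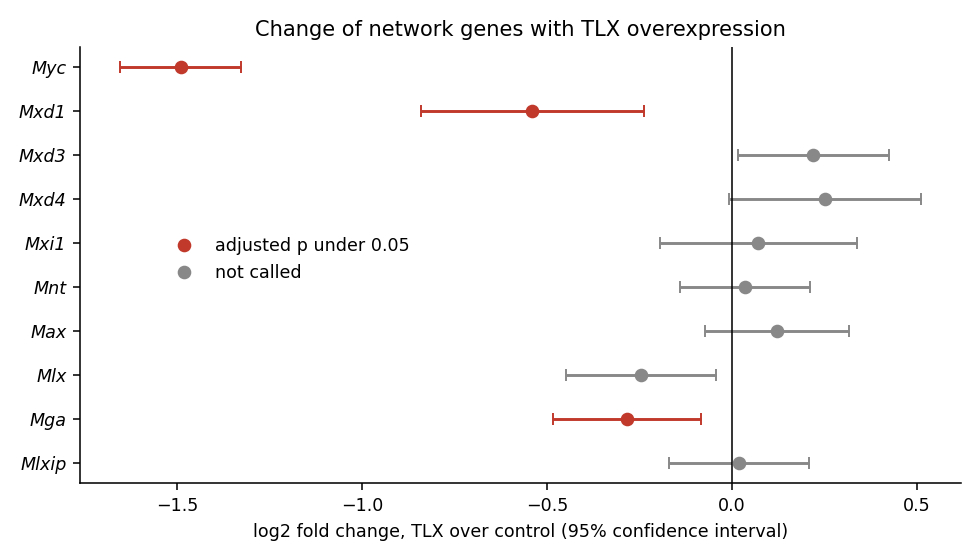
Log2 fold change of TLX over control for the 8 tested members and for Mga and Mlxip, with 95% confidence intervals from edgeR's quasi-likelihood fit. Myc lies at -1.49, Mxd1 at -0.54 and Mga at -0.28, all with adjusted p under 0.05, and the other 7 genes lie between -0.25 and 0.25.

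Levels of different genes were set side by side per length, as RPKM, which divides CPM by the deposited feature length in kilobases. In TLX libraries Myc had 39.5 and 42.5 RPKM and Mxd3 had 40.4 and 35.0 RPKM, so that the 2 most abundant members overlapped. In control libraries Myc had 116.9 and 113.7 RPKM, far above Mxd3 at 33.8 and 31.2 RPKM. After these came Max, at 27.5 ± 2.2 RPKM in TLX and 25.2 ± 1.5 RPKM in control (SD, n = 2 each). Mxd4, Mlx and Mnt formed a close middle group, at 20.7 ± 2.6, 18.54 ± 0.03 and 17.6 ± 0.8 RPKM in TLX and at 17.5 ± 1.3, 22.1 ± 1.5 and 17.2 ± 0.4 RPKM in control. The libraries of Mnt and Mxd4 overlapped in control, whereas in TLX both libraries of Mxd4, at 22.6 and 18.8 RPKM, lay above those of Mlx and Mnt. Mxi1 and Mxd1 were the lowest of the tested members, at 3.56 ± 0.26 and 2.37 ± 0.02 RPKM in TLX and at 3.40 ± 0.35 and 3.46 ± 0.31 RPKM in control, where they overlapped.

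These levels change the make-up of the network's messenger RNA. Myc made up 23.3% and 25.3% of the summed RPKM of the 10 members in TLX libraries, against 48.5% and 49.0% in control libraries. Per length, the ratio of Myc to its partner Max was 1.53 and 1.47 in TLX libraries, against 4.85 and 4.33 in control libraries. The ratio of Myc to the summed Max-dependent repressors (Mxd1, Mxd3, Mxd4, Mxi1 and Mnt) was 0.461 and 0.545 in TLX libraries, against 1.52 and 1.6 in control libraries. The repressor transcripts together thus outweighed Myc in TLX libraries and not in control libraries, with their own sum at 85.7 and 78.1 RPKM in TLX and 76.9 and 71.0 RPKM in control. These ratios describe transcripts, not protein, and rest on the fall of Myc for most of their size. Mxd3 was the largest part of the repressor sum, at 40.4 and 35.0 RPKM in TLX libraries and 33.8 and 31.2 RPKM in control libraries. Since strand use is not known, that sum may hold reads of the genes that overlap Mxd3, Mxd4 and Mxi1. With 2 libraries against 2 the smallest two-sided p of an exact permutation test is 0.333, so the ratios were not tested.

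**Figure D3:**
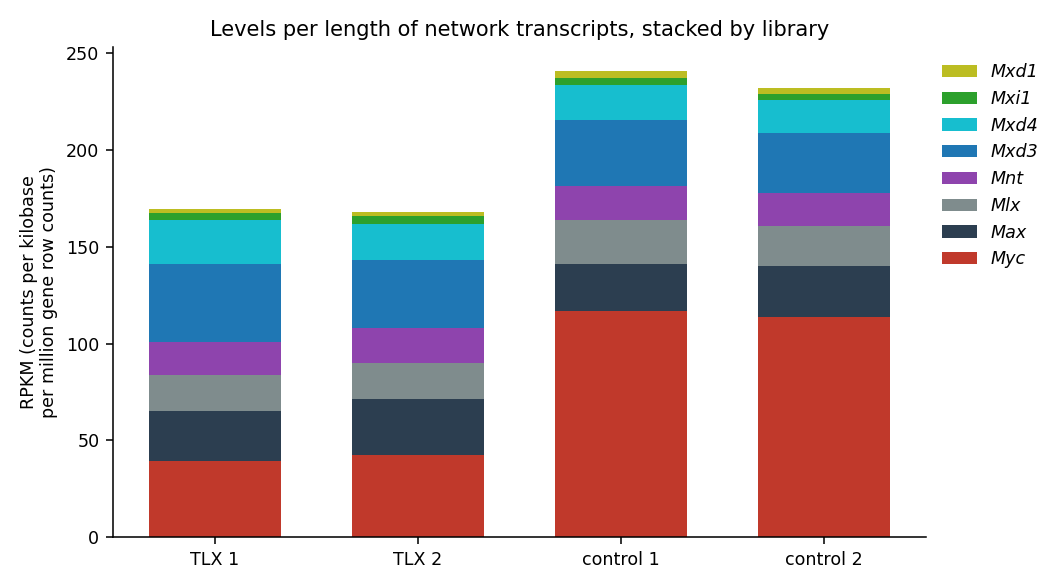
Levels per length of the 8 tested members, in RPKM, stacked for each of 2 TLX and 2 control libraries. The summed height of all members is 170 and 168 RPKM in TLX against 241 and 232 RPKM in control. The Myc segment is 39.5 and 42.5 RPKM against 116.9 and 113.7 RPKM, a larger difference than that of the summed height.

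Around the 10 members lie Mga, MondoA (Mlxip) and ChREBP (Mlxipl). Mga, a Max partner of noncanonical repressive complexes, had 44.6 and 51.7 CPM in TLX libraries, against 55.5 and 61.4 CPM in control libraries. It was called lower in edgeR (log2 fold change -0.28, SE 0.10; adjusted p = 0.0462) and not in DESeq2 (0.248), limma-voom (0.0502) or the fit on all feature rows (0.0523). Without control replicate 2 its adjusted p was 0.168, and without TLX replicate 1 it was 0.482 with a log2 fold change of -0.18. Mlxip had 65.0 and 68.3 CPM in TLX libraries and 60.9 and 70.3 CPM in control libraries (edgeR adjusted p = 0.921), and Mlxipl had 0 and 3 counts in TLX libraries and 0 in both control libraries. Between MondoA and ChREBP, only MondoA was transcribed at a testable level in these libraries, and its level overlapped between the groups. Of all 7 tested genes of the wider E-box list, 1 rose and 1 fell, or 28.6% called against 16.8% of all genes. The gene that rose, named after its value was seen, was Tfap4, an E-box factor known as a Myc target, at 17.8 and 16.1 CPM in TLX and 12.9 and 12.5 CPM in control (edgeR adjusted p = 0.0391; 0.298 in DESeq2 and 0.0515 on all feature rows). Tfap4 also lost its call when control replicate 2 (0.108), TLX replicate 1 (0.252) or TLX replicate 2 (0.0521) was left out, and the list then had 0, 0 and 1 calls.

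Genes that Myc is known to activate moved in both directions, with more of those called lower than higher. Of 86 such genes, all of them tested, 5 rose, 15 fell and 66 did not pass (edgeR, adjusted p under 0.05). That is 23.3% called, against 16.8% of all genes (7.79% higher and 9.04% lower). Their median log2 fold change was -0.066. Nop56, a protein of the small nucleolar ribonucleoprotein that methylates ribosomal RNA, was at 147 and 151 CPM in TLX libraries, against 214 and 237 CPM in control libraries (log2 fold change -0.60, adjusted p = 8.51e-06). Rrs1, a ribosome assembly factor, was at 87.1 and 89.5 CPM in TLX libraries, against 121.6 and 116.6 CPM in control libraries (log2 fold change -0.43, adjusted p = 0.000547). Pprc1, a coactivator of mitochondrial biogenesis, fell by 0.49 on the log2 scale, and Shmt2, the mitochondrial enzyme of serine use, fell by 0.40.

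Odc1, the ornithine decarboxylase of polyamine synthesis and a classic Myc target, was at 982 and 912 CPM in TLX libraries, against 1233 and 1194 CPM in control libraries (log2 fold change -0.36, edgeR adjusted p = 0.0037; 0.135 without TLX replicate 2). The falls of the other 10 genes lay between -0.38 and -0.23; chosen after their values were seen, they are Rrp12, Nip7, Tcof1, Wdr74, Ppan and Nop2, which act in ribosome production, and Pus1, Exosc5, Hk2 and Slc3a2. The step of each was well under that of Myc itself. Against them stood the chromatin protein gene Cbx3, which rose to 59.3 and 63.2 CPM in TLX libraries, against 42.4 and 44.0 CPM in control libraries (log2 fold change 0.50, adjusted p = 0.000401). The other 4 that rose were the replication helicase genes Mcm4 and Mcm5, Ptma and Eif4g1, with log2 fold changes of 0.25 to 0.39. They were also chosen after their values were seen. Other genes of ribosome production on the list did not pass, among them Fbl, Bop1, Npm1 and Ncl, again named after their values were seen. The count of 20 calls was 14 in DESeq2, which called 839 of the 11024 genes tested. Fewer were called with either TLX library left out, on the list and over all genes. The 23.3% called thus rests on both TLX libraries.

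Genes that Myc is known to repress moved in both directions. Of the 18 listed, 13 were tested. The test called 3 higher and 5 lower, and 5 did not pass. That is 61.5% called, against 16.8% of all genes (7.79% higher and 9.04% lower). The median log2 fold change was 0.12. Of those called higher, Col1a2 and Thbs1, named here after their values were seen, were near the threshold (edgeR adjusted p of 0.0434 and 0.0487). The 3 genes of the list with the smallest p all fell. Ddit3, the stress factor CHOP, was at 156 and 174 CPM in TLX libraries, against 514 and 481 CPM in control libraries (log2 fold change -1.59, edgeR adjusted p = 4.65e-12). Gadd45a, a growth arrest gene induced by DNA damage, had a log2 fold change of -1.38, and Ndrg1, a gene induced in hypoxia, of -1.13. These genes are also known to respond to stress pathways other than Myc, whose part here was not tested. Tgfbr2, a receptor chain for TGF-beta, was at 135.2 and 130.7 CPM in TLX libraries, against 92.6 and 75.7 CPM in control libraries (log2 fold change 0.66, adjusted p = 1.43e-05). Cdkn1a, the inhibitor p21, had a log2 fold change of -0.32 (adjusted p = 0.00517; 0.0548 and 0.159 without TLX replicates 1 and 2), and the growth factor receptor gene Pdgfrb of -0.73 (adjusted p = 0.00647; 0.079 in DESeq2 and 0.071 without control replicate 1). The 8 calls became 5 without control replicate 1 and 5 without TLX replicate 2. The list also holds the member Mxd4, and Pdgfrb and Col1a2 are also on the mesenchymal marker list, whose sum differed between the groups as given above.

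Targets of MondoA, ChREBP and Mlx moved in both directions. Of 14 listed, 11 could be tested: 3 were called higher, 2 lower and 6 did not pass, or 45.5% called against 16.8% of all genes, with a median log2 fold change of 0.10. Txnip, the thioredoxin-interacting protein gene and a hallmark target of MondoA, was at 72.4 and 80.7 CPM in TLX libraries, against 135.5 and 145.2 CPM in control libraries (log2 fold change -0.88, SE 0.08; edgeR adjusted p = 1.17e-07). Klf10 was at 25.6 and 27.5 CPM in TLX libraries, against 40.4 and 39.8 CPM in control libraries (log2 fold change -0.60, adjusted p = 0.000264). The groups of both genes lay well apart. The genes that rose were Fasn, Acly and Acaca, which encode enzymes of fatty acid synthesis, with log2 fold changes of 0.34, 0.27 and 0.27 (edgeR adjusted p of 0.00421, 0.0161 and 0.0252). Acly and Acaca did not pass in DESeq2 (0.0611 and 0.12), and all 3 missed the threshold without TLX replicate 1 (0.112, 0.144 and 0.157). Without TLX replicate 2 Acly (0.213) and Acaca (0.228) missed it, and without control replicate 2 Acaca (0.0897). Mknk2, with a log2 fold change of 0.19, did not pass (adjusted p = 0.121). The list's 5 calls were 3 in DESeq2 and without TLX replicate 2, and 2 without TLX replicate 1.

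The corepressor that Mxd proteins and Mnt recruit was in part higher with TLX. The list of 20 genes for the Sin3 and histone deacetylase corepressor is wider than the complex itself and also holds Ncor1 and Mgea5. Of the 20, 6 rose and 14 did not pass. That is 30.0% called, against 16.8% of all genes in either direction and 7.79% of all genes higher. The median log2 fold change was 0.16. None fell (0 in edgeR at an unadjusted p under 0.05 and 0 in DESeq2). Sap130, a Sin3-associated subunit, was at 125.1 and 124.0 CPM in TLX libraries, against 92.4 and 95.8 CPM in control libraries (log2 fold change 0.40, edgeR adjusted p = 0.00092). Ing1, which reads a histone mark for the complex, was at 44.4 and 43.7 CPM in TLX libraries, against 34.1 and 29.5 CPM in control libraries (log2 fold change 0.47, adjusted p = 0.00222). In both genes the TLX libraries were close together and above both control libraries. The histone-binding subunit gene Rbbp7 and the deacetylase gene Hdac1 each rose by 0.34 on the log2 scale, and missed the threshold without TLX replicate 2 (0.116 and 0.0869; Hdac1 also without TLX replicate 1, 0.0534). The scaffold gene Sin3a, which the Mxd proteins contact directly, was at 51.5 and 55.6 CPM in TLX and 39.2 and 44.6 CPM in control (log2 fold change 0.35, adjusted p = 0.0144; 0.116 in DESeq2, 0.0628 without control replicate 1 and 0.169 without TLX replicate 2). Arid4a, with a log2 fold change of 0.49, was likewise not called in DESeq2 (0.197), without control replicate 1 (0.0885) or without TLX replicate 2 (0.119). Without TLX replicate 2 most of the 6 calls were lost, and fewer of all genes were called. The 30.0% thus rests in part on that library.

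Regulators of Myc protein and its coactivators moved in both directions. Among 34 tested, 4 were called higher, 3 lower and 27 neither, or 20.6% called against 16.8% of all genes, with a median log2 fold change of 0.05. Usp36, a nucleolar deubiquitinase that stabilises Myc, was at 69.4 and 73.7 CPM in TLX libraries, against 110.4 and 93.2 CPM in control libraries (log2 fold change -0.51, edgeR adjusted p = 0.000391). Pim3, a kinase of the Pim family, had a log2 fold change of -0.33 (adjusted p = 0.00463; 0.16 without TLX replicate 2). Hcfc1, a chromatin cofactor that Myc contacts, was at 283 and 281 CPM in TLX libraries, against 219.6 and 216.1 CPM in control libraries (log2 fold change 0.37, adjusted p = 0.00103). The mitotic kinase gene Aurka, the ubiquitin ligase gene Fbxl14 and the acetyltransferase gene Ep300 had log2 fold changes of 0.34, 0.34 and 0.29 (edgeR adjusted p of 0.00922, 0.00962 and 0.015) and did not pass in DESeq2 (0.0737, 0.0774 and 0.066) or without TLX replicate 2 (0.101, 0.167 and 0.253). Without TLX replicate 1 Aurka (0.0701) and Ep300 (0.0884) also missed the threshold. The 7 calls were 3 in DESeq2, 12 without control replicate 1, and 4 and 2 without TLX replicates 1 and 2.

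For 22 tested factors known to act on Myc transcription, 3 calls were higher, 2 lower and 17 did not pass, or 22.7% called against 16.8% of all genes (median log2 fold change 0.06). Ets2, a transcription factor of growth factor signalling, was at 102.8 and 108.8 CPM in TLX libraries, against 182.2 and 181.4 CPM in control libraries (log2 fold change -0.78, edgeR adjusted p = 1.94e-07). Pvt1, the noncoding gene next to Myc on chromosome 15, was low, at 4.63 and 5.80 CPM in TLX libraries, against 7.91 and 8.36 CPM in control libraries (log2 fold change -0.65, SE 0.20; adjusted p = 0.0263). Its call was lost in DESeq2 (0.265), without control replicate 2 (0.0842) and without TLX replicate 1 (0.251). E2f1, a factor of S phase entry, and Fubp1, which binds a far upstream element of Myc, rose by 0.37 and 0.31 on the log2 scale (edgeR adjusted p of 0.00497 and 0.00974). Fubp1 missed the threshold without TLX replicate 1 (0.0937) or 2 (0.152), and E2f1 without TLX replicate 2 (0.0779). Tcf7l2, the Wnt pathway factor, was near the threshold (log2 fold change 0.68, adjusted p = 0.045) and lost its call in DESeq2 (0.351), in limma-voom (0.0512), on all feature rows (0.0655) and with either replicate of either group removed (0.0733 to 0.177). The list's 5 calls were 3 in DESeq2 and 2 without either TLX replicate, and Smad3, with a log2 fold change of 0.32, did not pass (0.0542).

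**Figure D4:**
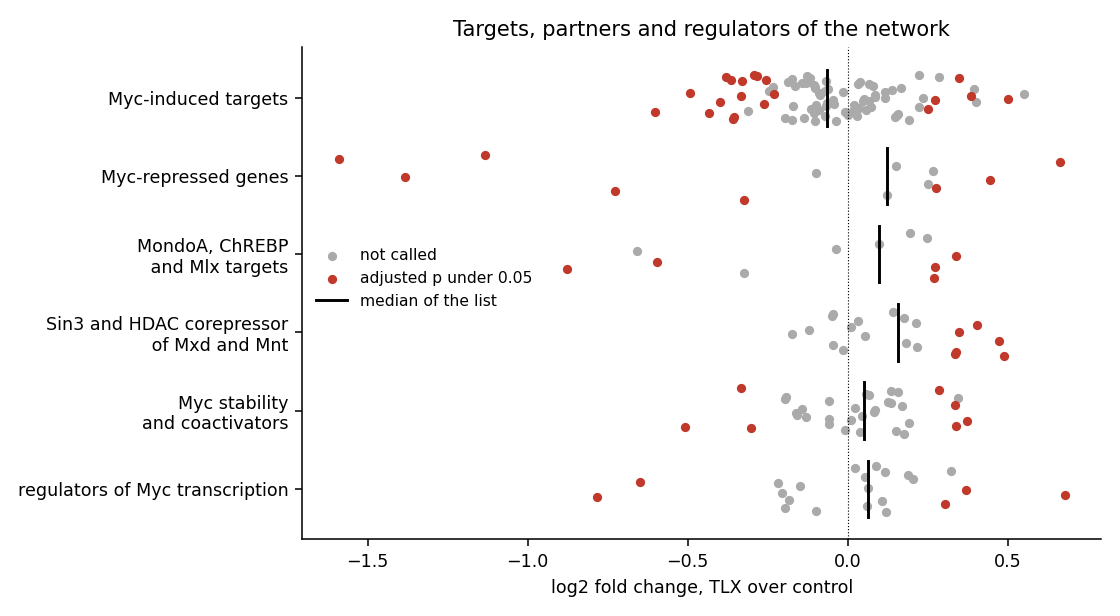
Log2 fold change of TLX over control for each tested gene of 6 lists, with genes at an edgeR adjusted p under 0.05 in red, the others in grey and the list median as a black line. Every list median lies between -0.07 and 0.16, and the red points of the Sin3 list are all to the right of 0 while 15 of the 20 red points of the Myc-induced list are to the left.

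The genes whose profiles were most like that of Myc were found by the Euclidean distance between log2 CPM values, centred on each gene's mean, over the 4 libraries and 6700 named genes that average at least 20 CPM. The 5 nearest were Dusp5, a phosphatase that limits ERK signalling (distance 0.081), Ddit3 (0.116), Car6 (0.139), Gadd45a (0.147) and Cnnm4 (0.161). Their log2 fold changes lay between -1.63 and -1.34, beside -1.49 for Myc. Around Mxd1 the nearest were Epha2, Pisd, Gne, Caml and Tada3, at distances of 0.028 to 0.043 and with log2 fold changes of -0.56 to -0.53. Over 4 libraries in 2 groups such a likeness describes little more than the shared size of the group difference.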

How the data were processed

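The authors deposited 1 table of raw counts, whole numbers that had not been normalized, with a length for each feature, per the file headers. The submitters' processing notes name TopHat2 2.0.13 and mouse build mm9; no source used here states the counting program, the annotation, how multiple matches were handled or whether strand was used. Of 56826 rows, 33353 named for FANTOM3 cDNA clones (23.3% to 25.1% of counts) were left out, since they may repeat reads of genes. No clone row had the same 4 counts as a tested member. For Mxd1 and for Mnt, 1 clone row each came within 5% of the gene's count in all 4 libraries. Deposited lengths had a median ratio of 0.991 to the longest GENCODE M21 transcript over 21845 genes, and were read as transcript lengths in bases. CPM and RPKM were computed here.

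Low genes were removed by filterByExpr with a minimum count of 10. TMM-scaled counts went into edgeR's quasi-likelihood F-test of TLX over control. It leaves 2 residual degrees of freedom, and p-values were adjusted by Benjamini-Hochberg across the 11024 genes tested, with 0.05 as the threshold. The SE is the size of the log2 fold change over the square root of F, and 95% confidence intervals use the fit's total degrees of freedom. The software was R 4.3.3 with edgeR 4.0.16, with limma 3.58.1 and with DESeq2 1.42.0. The procedure was also run on simulated counts in which all genes shared the same relative spread. That run could not test how differences in spread between genes affect the calls. The median chi-square per gene between libraries was 0.923 for the TLX pair and 1.13 for the control pair, against 0.455 for sampling noise alone, so each library was kept as a separate sample.

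The members and lists were chosen with earlier results of these data known; the lists were written from general knowledge. Named are the members, Nr2e1, Mga, Mlxip, Mlxipl, a few cell markers, up to 6 genes of smallest p per list and the 5 genes of nearest profile for called members; others are said to have been chosen after their values were seen. Alternatives were other normalizations, filters, tests and row sets, a replicate block and leaving out each library.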

Additional observations from a re-analysis of the deposited data

How the results depend on the processing

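Myc kept its direction and its call in all 13 alternatives, with log2 fold changes of -1.54 to -1.44. Another scaling moved the median of all genes by less than 0.01. DESeq2's Wald test called 839 genes (355 higher, 484 lower) against 1856 (859 and 997), 1 network member against 2, 0 of the wider E-box list against 2, 3 MondoA, ChREBP and Mlx targets against 5, 3 stability and coactivator genes against 7, and 3 regulators of Myc transcription against 5. It gave no adjusted p for 855 genes. Calls in the wider E-box list were 1 in limma-voom and 0 on all feature rows. When each library was left out in turn, calls ran from 1024 to 2053 (388 to 993 higher and 585 to 1060 lower), 1 to 3 for the members and 0 to 2 for the wider E-box list. They ran from 6 to 23 for Myc-induced targets, 5 to 9 for Myc-repressed genes, 2 to 5 for MondoA, ChREBP and Mlx targets, 2 to 12 for stability and coactivators, 2 to 7 for the Sin3 complex and 2 to 6 for regulators of Myc transcription. Without TLX replicate 1 the calls were 1039 and without TLX replicate 2 they were 1024. Log2 fold changes that changed sign when a library was left out lay between -0.072 and 0.071 with all libraries in. With a library out the range was -0.037 to 0.17 for Mxi1, -0.013 to 0.081 for Mnt and -0.080 to 0.13 for Mlxip. For Usf2 it was -0.12 to 0.018 and for Zbtb17 -0.23 to 0.090. The cause of these differences was not tested.

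The titles number the libraries 1 and 2 in each group, and nothing says that a number pairs them. Deviations from the group mean correlated at 0.282 between same-numbered libraries over 6918 genes, a hint from the data only. With the replicate block 2982 genes were called (1495 higher and 1487 lower), 3 members, 32 Myc-induced targets and 10 regulators of Myc transcription. Mlx was the added member (adjusted p = 0.0266). Depth limits Mycn, Mycl1 and Mlxipl, for which no change could be seen.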
